A study of Homo sapiens with 6 samples.

Results

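The nuclear-encoded genes of respiratory complexes II to V were followed in macrophages that had received medium of tumor cells carrying a hairpin against SPP1 or a comparison hairpin. Members were the rows whose symbol is SDHA, SDHB, SDHC, SDHD, CYC1 or CYCS, begins with UQCR or ATP5, or begins with COX4 to COX8. This rule uses names and no measured value, although the list was chosen with earlier results of these data known. It found 50 of the 17513 listed genes. Of these, 4 belong to complex II, 11 to complex III with cytochrome c, 15 to complex IV and 20 to complex V. According to the series description, THP1 cells, a line from a human monocytic leukemia, had been turned into macrophages and then kept for 48 h in conditioned medium of KYSE150, a line from an esophageal squamous cell carcinoma. Medium came from KYSE150 cells carrying shSPP1#2, a hairpin directed at SPP1 (osteopontin), or from KYSE150 cells carrying shNC, the comparison hairpin, and each group has 3 libraries of polyadenylated RNA. In both groups the macrophages received tumor cell medium and the hairpin was in the tumor cells. Only 1 hairpin and 1 tumor line were compared, and no library of macrophages without tumor medium was analysed here.

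The respiratory chain of the inner mitochondrial membrane passes electrons from NADH and succinate to oxygen and pumps protons. Complex II oxidises succinate and hands the electrons to ubiquinone, complex III passes them to cytochrome c, complex IV reduces oxygen, and complex V, the ATP synthase, uses the proton gradient to make ATP. In macrophages, oxidative phosphorylation is known to be high in alternatively activated cells and to be cut back in cells activated by bacterial products, where succinate oxidation by complex II also takes part in signalling.

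The libraries held between 18113591 and 20626346 estimated counts. The sample labels name the KYSE150 line, whereas 21 of 24 macrophage genes reached 1 FPKM in every library, with a median of 57.6 to 64.3 FPKM. Of 20 squamous epithelial genes, 17 were listed, 3 of them reached 1 FPKM in each library, their median lay between 0 and 0.03 FPKM, and 5 to 9 of them were at 0. Their summed level was 93.6, 85.2 and 89.1 FPKM in shSPP1#2 medium and 89.6, 88.5 and 82.0 FPKM in shNC medium, so the groups overlapped. Replicate 2 of shNC stood apart on the first principal component of all tested genes, at 22.5 against -10.5 to 1.63 for the other libraries (25.2% of the variance), and it was also the smallest library. The labels do not state whether the replicates were separate cultures, and p-values therefore cover only the differences among these libraries, possibly technical ones.

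Promoters are shown for a subset of the members, and whether their motifs go with the differences between the media was not tested. RefSeq promoter windows (GRCh38.p14, from 250 bases before to 50 bases after the start) were found for 38 of the 50 members. Each window was searched on both strands for GCATGCGC, most of the site of NRF1, for CCGGAAG, the ETS core bound by GABP, and for AAGATGGC, most of the site of YY1, which are factors known for respiratory genes. No motif searched contains another, and CCGGAAG can match other ETS factors too. The window shown for each complex is that with most of these 3 motifs, with ties settled by the smaller p, so its matches were the reason for showing it, and COX7B was added as the member of smallest p. Capitals mark the matches.
SDHB, chr1:17053983-17054282, minus strand: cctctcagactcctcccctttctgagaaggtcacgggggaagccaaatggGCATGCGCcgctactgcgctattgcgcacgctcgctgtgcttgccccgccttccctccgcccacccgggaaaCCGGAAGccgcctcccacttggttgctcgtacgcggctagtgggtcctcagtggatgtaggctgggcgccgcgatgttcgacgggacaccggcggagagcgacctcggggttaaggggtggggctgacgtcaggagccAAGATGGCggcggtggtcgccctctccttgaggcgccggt
UQCRQ, chr5:132866392-132866691, plus strand: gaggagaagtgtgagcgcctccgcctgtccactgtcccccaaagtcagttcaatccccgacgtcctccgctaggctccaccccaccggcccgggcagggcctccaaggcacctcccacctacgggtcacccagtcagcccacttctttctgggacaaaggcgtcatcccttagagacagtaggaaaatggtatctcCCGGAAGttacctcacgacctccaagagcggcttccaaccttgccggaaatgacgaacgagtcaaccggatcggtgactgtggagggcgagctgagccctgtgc
COX5B, chr2:97645812-97646111, plus strand: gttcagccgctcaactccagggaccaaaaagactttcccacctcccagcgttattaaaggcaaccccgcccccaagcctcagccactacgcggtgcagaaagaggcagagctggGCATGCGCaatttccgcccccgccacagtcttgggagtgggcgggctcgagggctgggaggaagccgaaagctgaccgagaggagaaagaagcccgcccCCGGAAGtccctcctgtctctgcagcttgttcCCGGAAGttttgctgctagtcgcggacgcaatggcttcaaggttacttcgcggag
ATP5PF, chr21:25735005-25735304, minus strand: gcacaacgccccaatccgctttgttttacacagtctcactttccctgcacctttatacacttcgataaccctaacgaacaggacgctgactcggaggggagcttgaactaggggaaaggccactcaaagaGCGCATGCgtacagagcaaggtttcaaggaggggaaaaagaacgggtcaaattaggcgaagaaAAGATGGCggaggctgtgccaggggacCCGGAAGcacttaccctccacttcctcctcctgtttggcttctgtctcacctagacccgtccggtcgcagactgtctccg
COX7B, chrX:77899218-77899517, plus strand: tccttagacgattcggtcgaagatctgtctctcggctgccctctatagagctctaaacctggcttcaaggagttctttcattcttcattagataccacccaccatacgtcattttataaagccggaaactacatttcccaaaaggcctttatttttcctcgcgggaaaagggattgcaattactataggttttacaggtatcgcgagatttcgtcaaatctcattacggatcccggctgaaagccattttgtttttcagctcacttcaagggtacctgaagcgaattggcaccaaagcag
In the SDHB window the matches to the NRF1, GABP and YY1 motifs began at -200, -128 and 10 relative to the start. The COX5B window held an NRF1 match at -136 and GABP matches at -37 and -5. The ATP5PF window held an NRF1 match on the other strand at -120, a YY1 match at -57 and a GABP match at -30. UQCRQ had a single GABP match at -54, and the COX7B window held none of the 3 motifs.

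Counted per gene, the NRF1 motif was in 9 of 38 members (23.7%), against 6.1% of the 11055 tested genes with a window and 3.7% of all 27305 genes in the table. The GABP motif was in 42.1% of members, against 21.7% of tested genes and 12.2% of all genes. For the YY1 motif the shares were 13.2% of members, 6.1% of tested genes and 3.5% of all genes. CCAAT, the NF-Y core, was in 47.4% of members, 42.9% of tested genes and 39.7% of all genes. GGGCGG, the Sp1 core, was in 60.5% of members, fewer than the 74.9% of tested genes and more than the 48.3% of all genes. At least 1 of the NRF1, GABP and YY1 motifs was in 22 of 38 members (57.9%), against 30.2% of tested genes and 17.6% of all genes. No test was made of these shares, and a match is only a match of letters.

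Most members were abundant transcripts. The mean over the 6 libraries was at least 10 FPKM for 43 members, from 13.6 FPKM for UQCRB to 365 FPKM for UQCRH, with a median of 79.5 FPKM against 7.11 FPKM over all tested genes. The other 7 members averaged at most 1.56 FPKM, as the plot of levels by complex shows. They were the near copies UQCRHL and ATP5MGL, the readthrough transcript ATP5MF-PTCD1, the heart and muscle isoforms COX6A2 and COX7A1, and the testis isoforms COX6B2 and COX8C. All members together took 0.458%, 0.450% and 0.449% of the estimated counts in shSPP1#2 medium and 0.480%, 0.487% and 0.458% in shNC medium. Genes of mitochondrial DNA, which encode further subunits of complexes III, IV and V, were not analysed here.

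**Figure D1:**
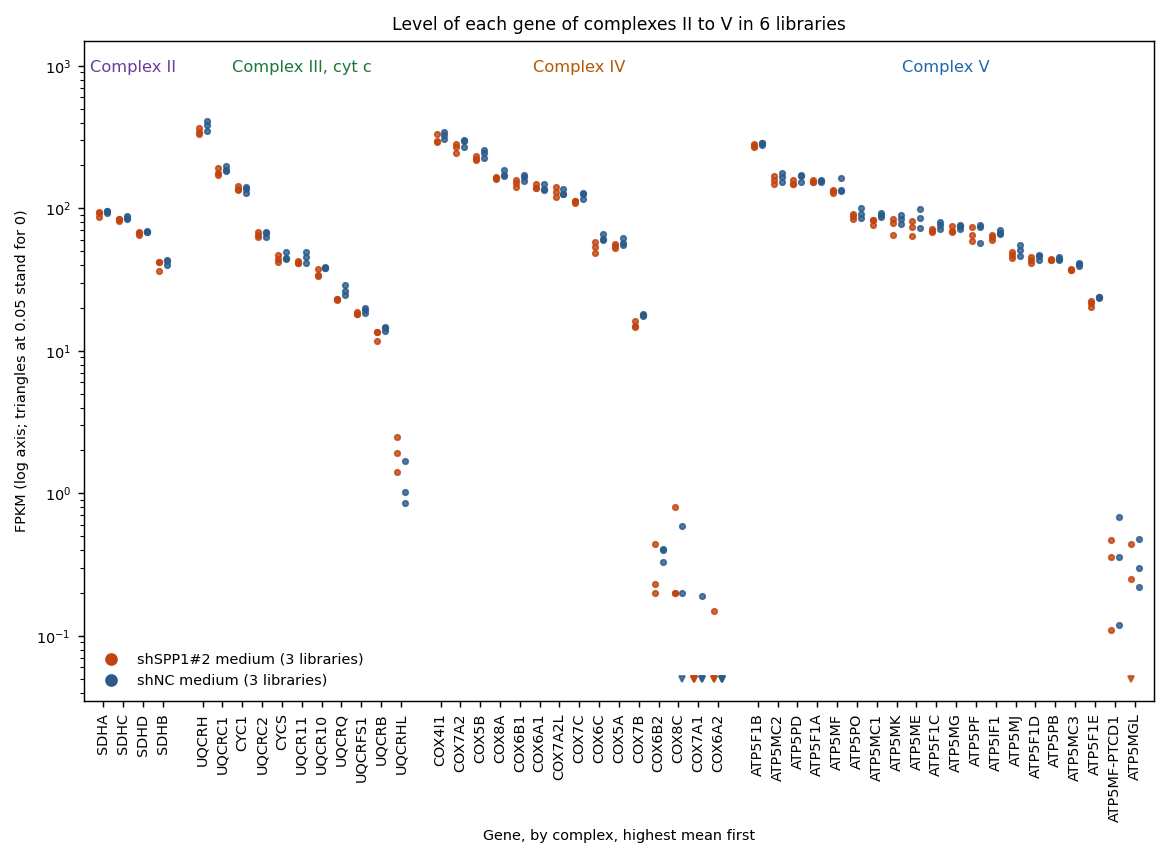
Level of each of the 50 genes in FPKM (log axis), by complex and with the highest mean first, each point a library, with shSPP1#2 medium left of shNC medium for each gene and triangles at 0.05 for a value of 0. The 43 genes above 10 FPKM spread less between libraries than between genes, and the 7 low genes stay at or under 1.56 FPKM on average.

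No member passed the threshold between the media, and most fitted differences were small and negative. The edgeR quasi-likelihood test with Benjamini-Hochberg adjustment called 0 of the 46 tested members, and it called 0.0% of all 13555 tested genes at an adjusted p below 0.05. The smallest adjusted p was 0.442 among members and 0.0655 among all genes. The log2 fold change, shSPP1#2 over shNC medium, was below 0 for 42 of 46 members (91.3%), against 50.1% of all tested genes. Its median was -0.11 over the members and -0.0003 over all tested genes. The 95% interval lay within 0.5 on the log2 scale for 43 of the 46, so larger differences fell outside the interval for these genes. Fewer mitochondria per cell, fewer cells of a kind and less RNA of these genes per cell cannot be told apart in bulk libraries.

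At an unadjusted p under 0.05, 16 of 46 members were lower in shSPP1#2 medium (34.8%) and 0 were higher, where 3.39% of all tested genes were lower and 3.45% higher. The 3 shSPP1#2 libraries all lay below the 3 shNC libraries in normalised CPM for 11 members (23.9%), against 5.5% of all tested genes. They all lay above them for 0 members, against 5.63% of all tested genes. DESeq2, run without the low-count filter, called 0 of 50 members and 25 of 17482 genes. With the same filter as the edgeR test, limma-voom called 0 of 46 members and 1 of 13555 genes. The members were measured in the same libraries, so these counts describe the list and are not 46 separate observations. The 43 abundant members also had a higher median level than all tested genes (79.5 against 7.11 FPKM). The shares over all tested genes were not matched to the members for level or transcript length.

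**Figure D2:**
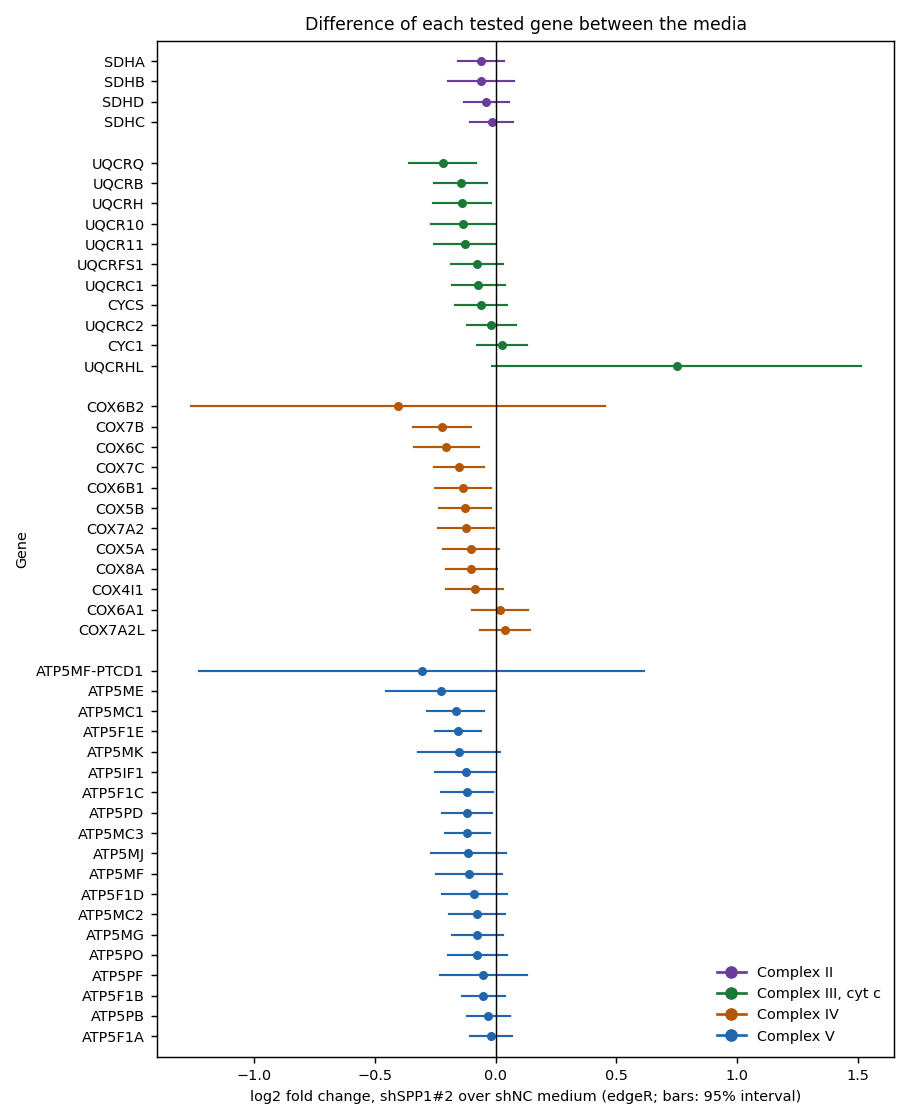
Fitted log2 fold change of each tested gene, shSPP1#2 over shNC medium, with its 95% interval from edgeR, by complex. Points for 42 of the 46 genes lie left of 0, the abundant ones between -0.23 and 0.038, and the 3 widest intervals belong to low genes (UQCRHL, COX6B2 and ATP5MF-PTCD1).

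The 4 subunits of complex II had the smallest median difference of the complexes, -0.050 on the log2 scale, and none had an unadjusted p under 0.05. SDHA, the flavoprotein that oxidises succinate, measured 86.6, 94.0 and 93.3 FPKM in shSPP1#2 medium and 93.1, 96.3 and 95.3 FPKM in shNC medium. Its log2 fold change was -0.062 (95% interval -0.16 to 0.034, edgeR adjusted p = 0.867). The iron-sulfur subunit SDHB, whose promoter carried all 3 motifs, measured 42.3, 42.0 and 36.5 FPKM in shSPP1#2 medium and 43.3, 42.5 and 40.0 FPKM in shNC medium. Its difference was -0.061 (-0.20 to 0.077), and 0.014 without the lowest library, shSPP1#2 replicate 3. SDHC and SDHD form the membrane anchor that binds ubiquinone. SDHC measured 84.3, 82.0 and 83.6 FPKM in shSPP1#2 medium and 84.6, 88.4 and 85.8 FPKM in shNC medium. These FPKM values do not overlap between the groups, whereas the normalised CPM values do, and the fitted difference was -0.016 (-0.11 to 0.073). It was 0.0 without shSPP1#2 replicate 2 and 0.016 once a trend over transcript length and GC content was removed. SDHD measured 66.9, 68.4 and 65.5 FPKM in shSPP1#2 medium and 68.8, 68.3 and 68.4 FPKM in shNC medium, with a difference of -0.039 (-0.13 to 0.055). The groups overlapped for SDHA, SDHB and SDHD.

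In complex III the median difference over all 11 members, cytochrome c included, was -0.077. The 4 large or catalytic subunits had differences of -0.077 to 0.026 and none had an unadjusted p under 0.05. UQCRC1, a core protein, measured 171, 192 and 176 FPKM in shSPP1#2 medium and 183, 197 and 185 FPKM in shNC medium, with a difference of -0.072 (95% interval -0.18 to 0.039). The groups overlapped for UQCRC1. The other core protein UQCRC2 had -0.018, the Rieske iron-sulfur protein UQCRFS1 -0.077 and cytochrome c1, CYC1, 0.026. The soluble carrier CYCS averaged 45.1 FPKM over the libraries and had a difference of -0.062 (-0.17 to 0.045).

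The 5 small subunits of complex III had lower values, from -0.22 to -0.13, with a median of -0.14 against -0.045 for the large ones. This division into large and small subunits was made after the values were seen and was not tested. UQCRQ, a small subunit of the membrane part, measured 23.2, 23.1 and 22.6 FPKM in shSPP1#2 medium and 26.2, 29.2 and 24.5 FPKM in shNC medium. Its groups do not overlap, and shNC replicate 2 was the highest library. The means were 23.0 ± 0.312 FPKM in shSPP1#2 medium and 26.7 ± 2.36 FPKM in shNC medium (SD, n = 3 each), a log2 fold change of -0.22 (95% interval -0.36 to -0.081, edgeR adjusted p = 0.486). UQCRQ (Entrez 27089) occupies chromosome 5 from 132866560 to 132868031, plus strand (GENCODE v29, GRCh38), and 20.8% of its exonic bases lie opposite GDF9.

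UQCRB, a ubiquinone-binding subunit, measured 13.5, 11.8 and 13.5 FPKM in shSPP1#2 medium and 14.4, 14.7 and 13.7 FPKM in shNC medium. The groups lie apart by a small margin, and the difference was -0.15 (-0.26 to -0.038, edgeR adjusted p = 0.601). UQCRH, the hinge protein that helps cytochrome c bind, measured 367, 342 and 333 FPKM in shSPP1#2 medium and 385, 412 and 349 FPKM in shNC medium. Its groups overlapped, with a difference of -0.14 (-0.26 to -0.019, edgeR adjusted p = 0.657), and of -0.20 to -0.077 with single libraries left out. UQCR10 had -0.14 with groups apart, and UQCR11 had -0.13 with overlapping groups and -0.20 to -0.058 with single libraries left out. UQCRHL, a near copy of UQCRH, measured 1.93, 1.42 and 2.47 FPKM in shSPP1#2 medium and 0.85, 1.69 and 1.03 FPKM in shNC medium. Its value of 0.75 (-0.014 to 1.51) rests on 8.49 to 24.6 estimated counts per library, and reads shared with UQCRH can move it.

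Complex IV had a median of -0.13 over 12 tested members. At an unadjusted edgeR p under 0.05, 6 of the 12 were lower and 0 were higher, where 3.39% of all tested genes were lower. Without shNC replicate 2, 3 of the 12 were lower at that p, where 1.84% of all tested genes were lower. COX7B, a small subunit of the membrane part, had the smallest p of all members. It measured 16.3, 15.04 and 14.8 FPKM in shSPP1#2 medium and 18.2, 17.9 and 17.5 FPKM in shNC medium, so the groups do not overlap. The means were 15.4 ± 0.817 FPKM in shSPP1#2 medium and 17.9 ± 0.356 FPKM in shNC medium (SD, n = 3 each). The log2 fold change was -0.22 (95% interval -0.34 to -0.10, edgeR adjusted p = 0.442), and it stayed between -0.26 and -0.18 when single libraries were left out. COX7B (Entrez 1349) occupies chromosome X from 77899438 to 77907373, plus strand.

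COX6C, another small membrane subunit, measured 53.7, 48.9 and 58.4 FPKM in shSPP1#2 medium and 66.0, 59.6 and 60.8 FPKM in shNC medium. The groups lie apart, with a difference of -0.21 (-0.34 to -0.071, edgeR adjusted p = 0.509), and 17 named pseudogenes resemble it. COX7C, also of the membrane part, measured 113, 108 and 113 FPKM in shSPP1#2 medium and 126, 127 and 117 FPKM in shNC medium. Its groups lie apart as well, with a difference of -0.15 (-0.25 to -0.048, edgeR adjusted p = 0.560). The most abundant subunit was COX4I1, the general isoform of subunit 4, which takes part in regulation by ATP. It measured 296, 333 and 293 FPKM in shSPP1#2 medium and 326, 343 and 307 FPKM in shNC medium. The groups overlapped, with a difference of -0.087 (-0.21 to 0.031), and of -0.15 to -0.040 with single libraries left out. COX7A2, the general isoform of subunit 7A, measured 283, 245 and 268 FPKM in shSPP1#2 medium and 295, 302 and 268 FPKM in shNC medium. It overlapped between the groups too, with -0.12 (-0.24 to -0.006).

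COX5B and COX6B1 had differences of -0.13 and -0.14, each with an unadjusted p under 0.05, and COX5A and COX8A had -0.10. COX6A1 had 0.018 and COX7A2L, a factor in supercomplex assembly, had 0.038. The isoforms of other tissues were at or near 0. COX6A2 was at 0.15 FPKM in shSPP1#2 replicate 3 and at 0 in the other 5 libraries. COX7A1 was at 0.19 FPKM in shNC replicate 2 and at 0 elsewhere. COX8C measured 0.20, 0.80 and 0.20 FPKM in shSPP1#2 medium and 0.59, 0 and 0.20 FPKM in shNC medium. These 3 genes held 0 to 8 estimated counts per library and were not tested. COX6B2 measured 0.23, 0.44 and 0.20 FPKM in shSPP1#2 medium and 0.41, 0.33 and 0.40 FPKM in shNC medium, with a difference of -0.41 (-1.26 to 0.45). NDUFA4, a complex IV subunit outside the naming rule, had -0.026 (-0.13 to 0.078), and a homologue, NDUFA4L2, had -0.050 (-0.64 to 0.54). C15orf48, grouped with them, was among the listed genes but was not tested.

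All 19 tested members of complex V had a value below 0 (18 in 4 of the 6 fits that left out a library), with a median of -0.11. At an unadjusted edgeR p under 0.05, 6 of them were lower (31.6%, against 3.39% of all tested genes). In the F1 head, where ATP is made, the catalytic beta subunit ATP5F1B measured 282, 271 and 274 FPKM in shSPP1#2 medium and 288, 285 and 279 FPKM in shNC medium. The ranges overlapped, with a difference of -0.051 (95% interval -0.14 to 0.038). The alpha subunit ATP5F1A had -0.018. In the central stalk, the epsilon subunit ATP5F1E measured 21.7, 20.3 and 22.3 FPKM in shSPP1#2 medium and 23.5, 23.9 and 24.0 FPKM in shNC medium. Its groups do not overlap, and the difference was -0.16 (-0.25 to -0.060, edgeR adjusted p = 0.486). TUBB1 lies opposite 23.2% of its exonic bases. The gamma subunit ATP5F1C had -0.12 and the delta subunit ATP5F1D had -0.089.

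The c ring turns as protons pass and is built from 1 mature protein that ATP5MC1, ATP5MC2 and ATP5MC3 all encode. ATP5MC1 measured 82.3, 82.5 and 76.8 FPKM in shSPP1#2 medium and 86.7, 92.1 and 90.4 FPKM in shNC medium. Its groups lie apart, with a difference of -0.17 (-0.28 to -0.047, edgeR adjusted p = 0.583). ATP5MC3 measured 37.2, 37.4 and 37.0 FPKM in shSPP1#2 medium and 40.4, 41.2 and 39.1 FPKM in shNC medium. These also lie apart, with a difference of -0.12 (-0.21 to -0.024, edgeR adjusted p = 0.630). ATP5MC2 measured 168, 148 and 158 FPKM in shSPP1#2 medium and 167, 177 and 154 FPKM in shNC medium. Here the groups overlapped, with a difference of -0.079 (-0.20 to 0.037). As a share of the summed FPKM of the 3 genes, ATP5MC2 gave 58.4%, 55.2% and 58.1% in shSPP1#2 medium and 56.8%, 57.0% and 54.3% in shNC medium. ATP5MC1 gave 28.2% to 31.9% and ATP5MC3 13% to 14% over the 6 libraries, so the order of the 3 genes was the same in each library.

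The peripheral stalk, which holds the head still, had differences of -0.032 for ATP5PB, -0.12 for ATP5PD, -0.052 for ATP5PF and -0.076 for ATP5PO. Among the small membrane subunits ATP5ME had -0.23, ATP5MF -0.11, ATP5MG -0.076, ATP5MJ -0.11 and ATP5MK -0.15. With single libraries left out, ATP5ME ran from -0.34 to -0.10, ATP5MF from -0.16 to -0.018, ATP5MJ from -0.17 to -0.040 and ATP5MK from -0.22 to -0.071. ATP5ME shares 61.6% of its exonic bases with MYL5 on the other strand, and its interval ran from -0.45 to -0.001. ATP5IF1, which inhibits ATP hydrolysis by the enzyme, had -0.12 (-0.25 to 0.002). ATP5MGL measured 0.44, 0 and 0.25 FPKM in shSPP1#2 medium and 0.30, 0.22 and 0.48 FPKM in shNC medium and was not tested. ATP5MF-PTCD1, which shares 88.3% of its exonic bases on its own strand, had -0.31 (-1.23 to 0.61) and ran from -0.72 to 0.39 with single libraries left out.

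Summed over members, the libraries overlapped between the media except in complex II. All members together summed to 4550, 4433 and 4392 FPKM in shSPP1#2 medium and 4759, 4948 and 4507 FPKM in shNC medium, a ratio of means of 0.941. Complex II summed to 280.0, 286 and 279 FPKM in shSPP1#2 medium and to 290, 296 and 290 FPKM in shNC medium, with no overlap and a ratio of 0.966. The ratios were 0.943 for complex III, 0.937 for complex IV and 0.940 for complex V. The sum of FPKM over all genes also differed between libraries. After rescaling each library to the same total, the ratios were 0.958 for all members, 0.984 for complex II, 0.961 for complex III, 0.954 for complex IV and 0.957 for complex V.

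A score per library weights members equally: from each member's log2 CPM its own mean over the 6 libraries was taken away, and these values were averaged. Over the 43 abundant members it was -0.020, -0.048 and -0.080 in shSPP1#2 medium and 0.051, 0.12 and -0.018 in shNC medium. The groups therefore lie apart only by the small step between shSPP1#2 replicate 1 and shNC replicate 3. With the 3 low tested genes included the score was -0.011, -0.022 and -0.10 in shSPP1#2 medium and 0.065, 0.085 and -0.015 in shNC medium, and the groups overlapped. By complex, the abundant members' groups lay apart in complexes III and IV and overlapped in complexes II and V. Over all tested members they lay apart in complex IV alone. The limit of 10 FPKM was chosen after the values were seen.

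**Figure D3:**
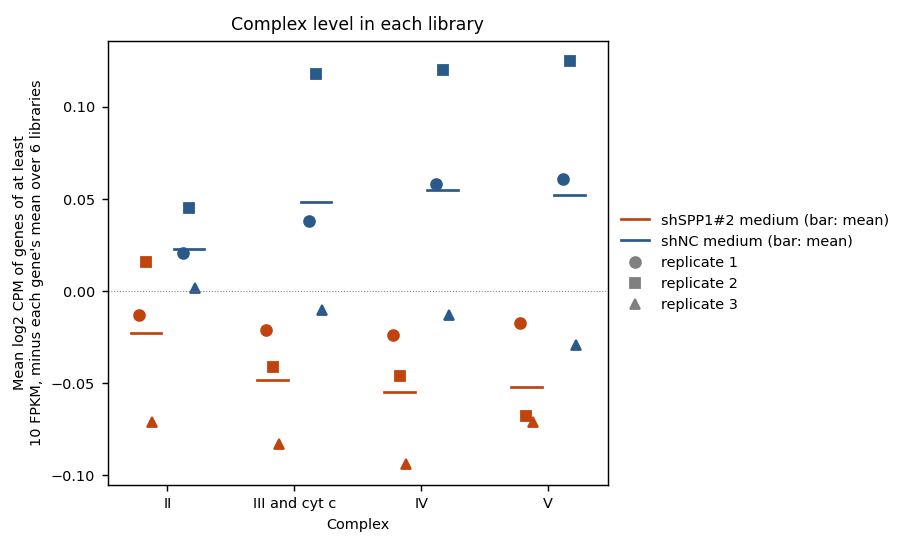
Score of each complex in each library, the mean log2 CPM of members of at least 10 FPKM minus each gene's mean over the 6 libraries, with shSPP1#2 medium left of shNC medium, bars at group means and symbols by replicate number. Replicate 2 of shNC is the highest point in each complex, and shNC replicate 3 (0.002, -0.010, -0.013 and -0.029 in complexes II to V) lies close to the highest shSPP1#2 point (0.016, -0.021, -0.024 and -0.017).

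With single libraries left out, the difference of 34 of the 46 members moved by more than 1.5 times or changed sign in at least 1 fit. The 12 others were UQCR10, UQCRHL, COX6C, COX7B, COX7C, ATP5F1B, ATP5F1C, ATP5F1E, ATP5MC1, ATP5MC3, ATP5PD and ATP5IF1. Such moves were not counted over all tested genes, so the count of 34 cannot be read as particular to the members. Replicate 2 of shNC was the highest library for 29 of 46 members (63.0%), against 20.9% of all tested genes. Replicate 3 of shSPP1#2 was the lowest for 22 members (47.8%), against 16.9% of all tested genes. Without shNC replicate 2 the members' median was -0.066, with 41 of 46 below 0 and 6 lower and 1 higher at an unadjusted p under 0.05 (13% lower, against 1.84% of all tested genes). Without shSPP1#2 replicate 3 it was -0.079, with 39 of 46 below 0 and 7 lower at that p (15.2%, against 3.07%). Without shNC replicate 3, the shNC library of lowest member score, it was -0.14, with 44 below 0 and 22 lower at that p (47.8%, against 3.64%). Each of these 3 libraries was the highest or lowest of its group on the members' own score. The direction in which the median moved therefore follows from which library was left out. The edgeR test called 0 members in each of these fits, with a smallest adjusted p among members of 1, 0.305 and 0.242. The complex II median was -0.011 without shSPP1#2 replicate 3, and the complex IV median was -0.080 without shNC replicate 2. Without shNC replicate 2, complexes III, IV and V had 1, 3 and 2 members lower at that p, against 4, 6 and 6 with all libraries.

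**Figure D4:**
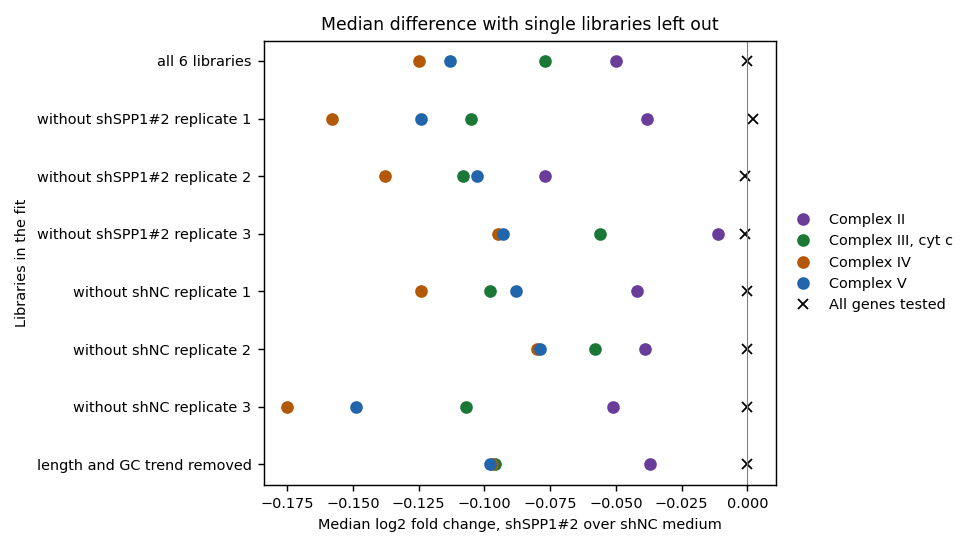
Median log2 fold change of the tested members of each complex, shSPP1#2 over shNC medium, with all 6 libraries, with each library left out, and with a length and GC trend removed; crosses are the median of all tested genes. Every complex median lies below 0 in these fits, between -0.18 and -0.011, while the crosses stay at 0.002 or nearer to 0.

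The members' transcripts are shorter than those of most tested genes, and the fold change was weakly related to transcript length over all genes. The median annotated coding transcript length was 707 bases over tested members and 1848 bases over all tested genes with a length. Across 8862 genes with a mean CPM of at least 10, the log2 fold change and transcript length had a Spearman rho of 0.25, and across 43 members 0.37. These are descriptions over genes measured in the same 6 libraries. After a smooth trend over length and GC content was removed from each library, rho was 0.0 over those genes and 0.23 over the members. The trend was fitted to tested genes including these, so values near 0 over all of them follow from the step. It used median annotated transcript lengths, which for some members differ from the lengths behind the FPKM values (below). With GC content, rho was -0.24 over those genes and 0.12 over the members before that step, and -0.01 and 0.31 after it. The members' median was then -0.086, with 41 of 46 below 0. By complex the medians were -0.037, -0.096, -0.097 and -0.098 for complexes II, III, IV and V. With that trend removed, 13 members were lower at an unadjusted p under 0.05 (28.3%, against 3.32% of all tested genes).

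Levels between genes depend on the length the authors divided by. The length implied by the estimated counts and the FPKM values was more than 3 times the median annotated coding transcript for 6 abundant members. For UQCRB it was 8431 bases against 645, 13.1 times as long, and for CYCS it was 6.07 times, for SDHC 4.39, for COX7B 3.96, for UQCRC2 3.18 and for ATP5MC3 3.04 times. Over 10095 tested genes the median of this quotient was 1.39, with 0.859 and 6.27 as its 5th and 95th percentiles. Among the 6 members only UQCRB lay above that 95th percentile. The implied lengths of UQCRB (8431 bases) and CYCS (5383 bases) exceeded their longest annotated coding transcripts, of 5575 and 4098 bases. Those of SDHC, COX7B, UQCRC2 and ATP5MC3 did not. The low place of UQCRB and COX7B in the order of levels moves with this length. Differences within a gene can move too: SDHC had -0.016 from counts and -0.050 from log2(FPKM + 0.1).

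**Figure D5:**
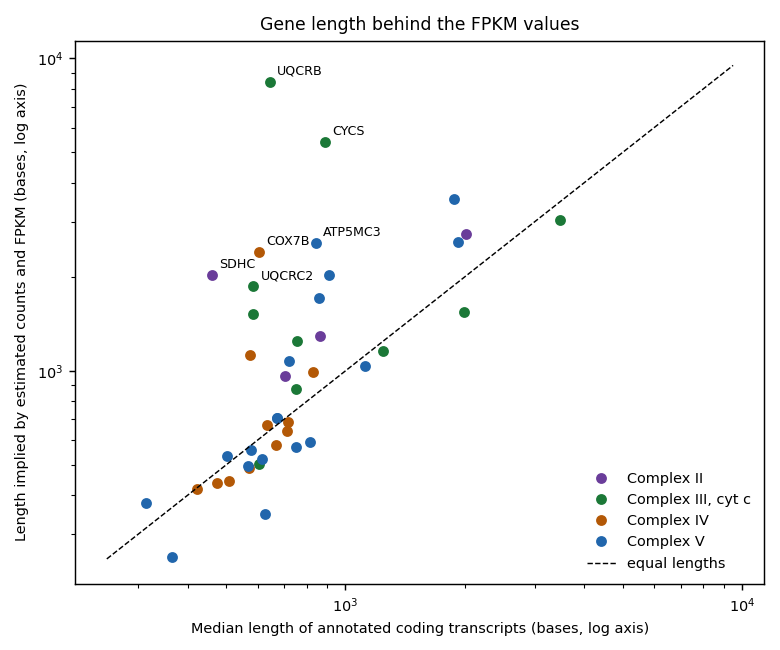
Gene length implied by estimated counts and FPKM against the median annotated coding transcript length (both log axes, in bases) for the abundant members, coloured by complex, with a dashed line at equal lengths. The 6 labelled genes lie more than 3 times above the line, UQCRB farthest at 8431 against 645 bases.

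Division of reads between copies limits some values. Named pseudogenes were annotated for 28 of the 50 members, 144 in all, with 40 for CYCS. The sources used here do not say how the counting treated them or whether it used strand, so members that share sequence or exons are uncertain to that extent.

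The rest of the pathway held no called gene either, since the edgeR test called 0.0% of all 13555 tested genes. Of 37 nuclear complex I subunits, 31 had a value below 0 (83.8%, against 50.1% of all tested genes), with a median of -0.082. At an unadjusted edgeR p under 0.05, 6 of the 37 were lower, against 3.39% of all tested genes. NDUFA13 and NDUFA1 are accessory subunits. NDUFA13 measured 111, 111 and 108 FPKM in shSPP1#2 medium and 122, 135 and 124 FPKM in shNC medium, with groups apart and a difference of -0.21 (95% interval -0.32 to -0.094, edgeR adjusted p = 0.442). NDUFA1 had -0.21 (-0.35 to -0.063). Factors that assemble the complexes had medians nearer to 0 or above it. For complex II assembly the median was 0.063, with 1 of 4 below 0, and SDHAF3 and SDHAF1 had 0.37 and 0.11. For complex III assembly it was 0.090, with 1 of 6 below 0, and UQCC2 and UQCC1 had -0.12 and 0.085. For complex IV assembly it was -0.040, with 16 of 29 below 0, and CMC2 and COX14 had -0.19 and -0.29. For complex V assembly it was 0.015, with 4 of 8 below 0, and ATPAF2 and DMAC2 had -0.25 and 0.048.

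Citric acid cycle enzymes had a median of -0.022 with 8 of 13 below 0, and MDH2, malate dehydrogenase, and IDH3B, a subunit of isocitrate dehydrogenase, had -0.11 and -0.18. Genes of mitochondrial import, channels and cristae had a median of -0.049 with 19 of 24 below 0, and TOMM7, of the outer membrane import pore, and CHCHD3, of the cristae junctions, had -0.20 and -0.13. The transcription factors of respiratory genes had a median of -0.002 with 6 of 11 below 0. NRF1, whose motif is marked in the promoters above, measured 4.13, 4.12 and 4.56 FPKM in shSPP1#2 medium and 3.93, 4.16 and 3.88 FPKM in shNC medium, with a difference of 0.10 (-0.072 to 0.27) and overlapping groups. SP1 had 0.057 (-0.037 to 0.15).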

How the data were processed

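Per the labels' protocols, RNA was extracted with TRIzol and run on DNBSEQ; the 6 libraries were grouped by the hairpin in their titles. The authors deposited estimated counts per gene, not scaled, of which 78.9% to 80.4% in a library were not whole (tolerance 0.005). They also deposited FPKM values per gene, fragments scaled by length and library total; the sources used here do not define either. Per the submitters' processing notes, the tools were RSEM, Bowtie2 2.2.5 and HISAT2 2.0.4 (no role or order given), with GRCh38.p13 as the build. Stray text lines (20) were dropped from the FPKM values.

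Estimated counts were rounded, filtered with filterByExpr, TMM-scaled and put through the quasi-likelihood test of edgeR 4.0.16 (R 4.3.3), as shSPP1#2 minus shNC. Benjamini-Hochberg adjustment ran over 13555 genes, with calls at an adjusted p below 0.05. Intervals are 95% intervals of that fit, and where log2 CPM averaged 2 or more the standard error had a median of 0.064. CPM was TMM-normalised, with a prior count of 2 on the log2 scale. Alternatives used DESeq2 1.42.0, limma 3.58.1 (voom, and log2(FPKM + 1) or log2(FPKM + 0.1)), mgcv 1.9.3 for the length and GC trend, other scalings and filters, a replicate block and each library left out. Plots used matplotlib 3.10.9. GENCODE v29, matched by Entrez number, gave coordinates, and length with GC content for 98.63% of genes.

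The members and gene lists were chosen with earlier results of these data known. Values per library are given for all complex II subunits and, in each other complex, for the 3 members of smallest p, the 2 of highest mean FPKM, tissue isoforms and untested members. In each pathway list the 2 genes of smallest p are named. The 10 FPKM and CPM limits, the subgroups of complexes and the length comparison were chosen after the values were seen. The promoters were first to be those of the members of smallest p, and were exchanged for those with most motifs after the matches were seen. Motif shares were planned per window and were counted per gene after the shares per window had been seen. Per window, the NRF1, GABP, YY1, NF-Y and Sp1 motifs were in 22.7%, 38.6%, 13.6%, 43.2% and 56.8% of 44 member windows and in 3.1%, 10.3%, 2.9%, 34.6% and 45.0% of all 35116 windows. A planned comparison of the subunit c proteins was not made.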

Additional observations from a re-analysis of the deposited data

How the results depend on the processing

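Of 46 tested members, 39 kept the sign of their log2 fold change in every refit that gave them a value, 37 below 0 and 2 above. There were 17 refits, and 16 for UQCRHL and COX6B2, which a CPM of at least 1 in 3 libraries left out. The others were SDHB, SDHC, UQCRC2, CYC1, COX6A1, ATP5PF and ATP5MF-PTCD1. In these refits 0 members were called (smallest adjusted p 0.0666, COX7B with a replicate block). The median over all members stayed below 0 in 18 alternatives, lowest at -0.14 (shNC replicate 3 left out) and highest at -0.066 (shNC replicate 2 left out). The complex II median was -0.011 without shSPP1#2 replicate 3 and -0.077 without shSPP1#2 replicate 2, and its summed ratio was 0.984 after rescaling to TPM. With single libraries left out, SDHB ran from -0.10 to 0.014 (shSPP1#2 replicate 3 out) and SDHC from -0.039 to 0.0 (shSPP1#2 replicate 2 out), and SDHC was at 0.016 with the length and GC trend removed. Restricted to members of at least 10 FPKM, a choice made after seeing the data, the score difference of complex III was -0.097, against -0.027 over all its tested members.

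Over all genes, edgeR called 18 with no low-count filter, and DESeq2, also run without that filter, called 25. With the filter, limma-voom called 1, limma on log2(FPKM + 0.1) called 1, and edgeR called 1 to 10 with single libraries left out. The replicate numbers were not treated as pairs, because the correlations of their deviations (0.0733, 0.096 and 0.0481) lay under a limit of 0.1. With 3 libraries per group these correlations cannot settle whether the numbers mark pairs. A replicate block in edgeR gave 59 called genes, 0 of them members, and a members' median of -0.11. In that fit 22 members were lower at an unadjusted p under 0.05 (47.8%, against 5.29% of all tested genes). The cause of these changes was not tested. COX6A2, COX7A1, COX8C and ATP5MGL held at most 8 estimated counts per library, and a difference in them was not detectable at this depth.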
